A study of Mus musculus with 6 samples.

Results

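The genes described here are 50 named mouse genes for mitotic kinases, the spindle, the kinetochore, cytokinesis and the mitotic chromosome, out of 24346 gene symbols measured by RNA sequencing. They were chosen by name from what the proteins are known to do, but with earlier results of these data known. Each of the 50 symbols was found in the deposited tables. The cells were 4T1, a mouse mammary carcinoma line that metastasizes when grafted into mice. Of the 6 libraries, 2 came from shRNA1 cells and 2 from shRNA3 cells, in which a different hairpin targeted the long noncoding RNA AU021063, and 2 came from WT cells, which were mock transfected 4T1 cells. The series is titled for a role of this RNA in invasion and metastasis. No control with a hairpin of unrelated sequence is labelled. Nothing states that replicate libraries are from independent cultures, and the p-values thus measure library-to-library spread that could be purely technical.

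Entry into mitosis is driven by the kinase CDK1 with cyclins A and B, after CDC25 phosphatases remove its inhibitory phosphates. Aurora and Polo kinases then build the spindle, kinetochores hold chromosomes to microtubules, and the spindle checkpoint keeps the anaphase-promoting complex silent until every chromosome is attached. Kinesins and cytokinesis proteins separate the chromosomes and divide the cell. Most of these genes are transcribed late in the cell cycle, and their RNA level in a growing culture is widely read as a sign of proliferation. In bulk RNA, more cells in mitosis and more of this RNA per cell cannot be told apart.

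Each library gave 1 value in FPKM, fragments per length of transcript and per mapped total, for each symbol. A library's values totalled 560862 to 604022 FPKM, and their depth, judged from ratios of low values, was 87.1% to 105.7% of that in WT replicate 1. The absolute depth is unknown, so no counting interval is given. The target AU021063 was measured at 1.04 and 0.572 FPKM in shRNA1 cells, 0.785 and 0 FPKM in shRNA3 cells, and 1.82 and 1.67 FPKM in WT cells. Its mean over the 4 knockdown libraries was 34.4% of that in WT, with no overlap. A two-sided exact permutation test gave p = 0.133, the smallest that 4 against 2 libraries allow. These values are low, and their mean was under the filter of 1 FPKM used below, so AU021063 was not among the genes tested there. Krt8 and Krt18, keratins of simple epithelia, made up most of the 9 epithelial markers, which summed to 1022 to 1092 FPKM with shRNA1 and 736 to 740 FPKM with shRNA3, against 932 to 965 FPKM in WT, while Epcam and Cdh1 were low and Esrp1 was listed at 0. Of 8 leukocyte markers 7 stayed under 1 FPKM in every library, Ptprc among those listed at 0, with Cd14 at 13.8 to 26.4 FPKM, and all 5 endothelial markers stayed under 1 FPKM. The 7 fibroblast markers summed to between 59.7 and 70.8 FPKM, nearly all from the receptors Pdgfra and Pdgfrb, with Col3a1 and Thy1 listed at 0. The part of these marker changes in the results below was not tested.

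All 50 genes passed the filter of a mean of at least 1 FPKM. Their mean level in WT ran from 7.87 FPKM for Kif14, a kinesin of cytokinesis, to 271.7 FPKM for Ube2c, the ubiquitin-conjugating enzyme of the anaphase-promoting complex, with a median of 54.8 FPKM. In WT, 6 genes reached 100 FPKM, and 10 were under 30 FPKM. Ube2c and Top2a, the topoisomerase that untangles sister chromatids, were the most abundant per length in every library. Top2a passed Ube2c in both shRNA3 libraries, where it had 362 and 373 FPKM and Ube2c had 339 FPKM in each. It did so in shRNA1 replicate 1 as well (318.3 against 314.2 FPKM), but not in shRNA1 replicate 2 (325.4 against 331.4 FPKM). Together the 50 genes summed to 3748 and 3822 FPKM with shRNA1 and to 3997 and 3977 FPKM with shRNA3, against 3303 and 3272 FPKM in WT. Every knockdown library was thus above both WT libraries in the summed level. The same held for the total over all symbols, with 560862 and 568005 FPKM in WT and 582444 to 604022 FPKM with the hairpins.

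With the hairpins averaged, 31 of the 50 genes (62%) were called higher than in WT and 1 was called lower, at a Benjamini-Hochberg adjusted p under 0.05 by limma over 11079 genes. Among all genes tested, 24.1% were called higher and 25.9% lower. The share of mitotic genes called higher was thus above that background and the share called lower was below it. This background was not matched for level: the median in WT was 54.8 FPKM for the 50 genes and 15.15 FPKM over all genes tested. The part of this difference in the shares was not tested. The median log2 change of the 50 genes was 0.19, against -0.01 over all genes tested. The rises were small: the 31 genes called higher had between 1.10 and 1.37 times the WT mean FPKM, with a median ratio of 1.20. In 30 genes all 4 knockdown libraries were above both WT libraries, and in 2 all 4 were below, against 22.2% and 25.5% of all genes tested.

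Each hairpin alone gave a like picture, though both comparisons use the same WT libraries. With shRNA1, 29 genes (58%) were called higher and 2 lower, against 17.6% and 18.4% of all genes tested. Fewer of the 50 were called in either direction when a WT library was left out, where the share of all genes was not counted. With no filter on low values 13 were called higher with shRNA1, against 4.22% of all genes then tested, and with the libraries rescaled to the same total 17, against 13.2%. With shRNA3, 30 genes (60%) were called higher and 1 lower, against 27.4% and 27.8% of all genes tested. The median log2 change was 0.19 with shRNA1 and 0.22 with shRNA3. By both hairpins singly 24 genes were called higher, against 12.2% of all genes tested, while 14 were called by neither, against 35.2%. Another 4 passed as higher with shRNA1 alone, against 4.40% of all genes tested, and 5 with shRNA3 alone, against 14.3%. Calls in opposite directions were made for 2 genes, against 2.04% of all genes tested. The heat map gives all 50 genes in the 6 libraries.

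**Figure D1:**
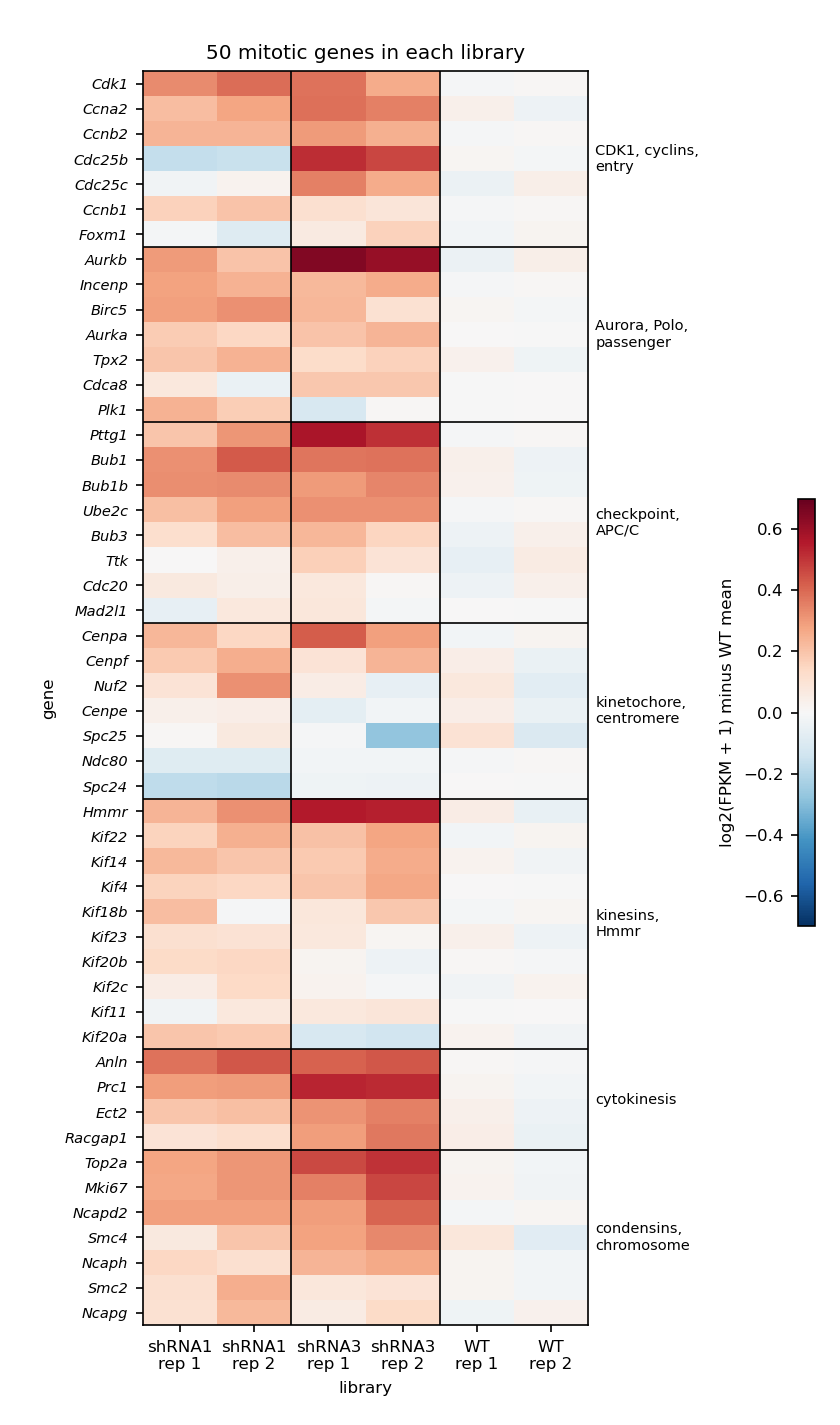
Level of the 50 genes (rows, by role and within a role by their change) in each of the 6 libraries (columns), as log2(FPKM + 1) minus the mean of the 2 WT libraries, with red above WT and blue below. Most rows are red in all 4 knockdown columns. The kinetochore block is the palest, and Cdc25b is blue in the shRNA1 columns and red in the shRNA3 columns.

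Where each library was rescaled to the same total, 22 genes were called higher and 2 lower over both hairpins, while 17.6% of all genes tested were then called higher and 33.6% lower. Calls among the 50 genes were 91.7% higher on that scale and 96.9% higher on the deposited one. The calls lost by this rescaling were those of Ccnb1, Bub3, Cdc25b, Cdc25c, Tpx2, Kif4, Kif14, Cenpf and Smc4. With no filter on low values, the calls of Bub3, Cdc25c, Birc5, Cenpa, Cenpf, Racgap1 and Smc4 were lost. Where the 4 knockdown libraries were fitted as 1 group, whose spread then includes the difference between the hairpins, 12 genes were called higher and 0 lower, against 7.20% and 6.45% of all genes tested. Those 12 were Cdk1, Ccna2, Ccnb2, Bub1, Bub1b, Ube2c, Incenp, Anln, Prc1, Top2a, Mki67 and Ncapd2.

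Genes of this kind often share a promoter design, shown here in chosen stretches of genes that rose and of some that did not. Each printed gene that was called higher has the design, but not all genes called higher do. The cell cycle genes homology region (CHR), searched as TTTGAA or TTCGAA, is bound by the MuvB complex, which represses in resting cells and, with B-MYB or FOXM1, activates late in the cycle. CCAAT boxes upstream of it are bound by the factor NF-Y. RefSeq promoter windows of 300 bases on GRCm38.p6, from 250 before to 50 after the annotated start, were matched for 41 of the 50 genes, in 44 windows. Ccna2, Tpx2, Cdc25c, Kif20a, Smc4, Spc24, Foxm1, Aurkb and Incenp were not matched. In the stretches below, from 120 bases before to 30 after a start and written in the direction of the gene, capitals mark the CHR hexamer (its reverse complement reads TTCAAA, and TTCGAA is its own) and the CCAAT box (ATTGG on the other strand).
Ccnb2, chr9:70421525-70421674, minus strand: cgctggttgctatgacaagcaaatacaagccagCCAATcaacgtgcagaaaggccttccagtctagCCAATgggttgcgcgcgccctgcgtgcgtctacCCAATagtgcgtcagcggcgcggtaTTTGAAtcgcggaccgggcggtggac
Cdk1, chr10:69352883-69353032, minus strand: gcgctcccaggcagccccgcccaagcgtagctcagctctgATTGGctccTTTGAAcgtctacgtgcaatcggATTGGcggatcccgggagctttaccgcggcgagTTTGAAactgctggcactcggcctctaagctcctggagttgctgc
Top2a, chr11:99024160-99024309, minus strand: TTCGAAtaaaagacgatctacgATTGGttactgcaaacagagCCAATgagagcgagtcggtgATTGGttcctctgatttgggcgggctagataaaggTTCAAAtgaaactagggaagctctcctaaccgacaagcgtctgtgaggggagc
Prc1, chr7:80294331-80294480, plus strand: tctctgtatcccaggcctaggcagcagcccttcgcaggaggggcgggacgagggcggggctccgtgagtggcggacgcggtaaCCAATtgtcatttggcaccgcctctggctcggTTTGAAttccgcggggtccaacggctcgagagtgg
Hmmr, chr11:40733408-40733557, minus strand: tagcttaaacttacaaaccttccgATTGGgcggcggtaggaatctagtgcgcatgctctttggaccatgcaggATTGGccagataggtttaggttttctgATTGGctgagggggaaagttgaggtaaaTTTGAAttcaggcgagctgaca
Cdc25b, chr2:131186828-131186977, plus strand: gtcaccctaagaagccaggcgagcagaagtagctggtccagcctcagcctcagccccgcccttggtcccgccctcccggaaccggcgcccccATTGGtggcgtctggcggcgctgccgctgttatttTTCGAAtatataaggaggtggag
Spc25, chr2:69206184-69206333, minus strand: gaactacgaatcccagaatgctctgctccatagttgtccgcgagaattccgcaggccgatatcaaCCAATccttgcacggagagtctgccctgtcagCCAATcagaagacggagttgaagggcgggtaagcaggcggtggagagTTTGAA
Nuf2, chr1:169531435-169531584, minus strand: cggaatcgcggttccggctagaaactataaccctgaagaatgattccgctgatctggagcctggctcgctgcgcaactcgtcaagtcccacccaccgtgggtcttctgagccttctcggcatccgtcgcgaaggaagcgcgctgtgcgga

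Positions count the start base as 1 and the base before it as -1. Within its printed stretch Ccnb2 has CCAAT boxes beginning at -87, -54 and -21 and a CHR hexamer at 5. The Hmmr stretch has the same order, with boxes at -96, -47 and -20 and the hexamer at 9. Further upstream, the Ccnb2 window also holds a hexamer at -167 and the Hmmr window boxes at -172 and -129. Spc25, which was not called in any comparison, also has 2 boxes and a hexamer, and the Nuf2 window holds neither. On either strand, 37 of the 44 windows (84.1%) hold the hexamer, against 19.2% of the 32851 windows in the table, and within 50 bases of the start the shares are 72.7% and 5.31%. A CCAAT box stands in 79.5% of these windows, against 37.4% of all windows, and at least 2 boxes in 52.3%, against 11.7%. A box 25 to 40 bases before a hexamer occurs in 43.2%, against 0.706%. Among matched genes, 21 of the 25 called higher over both hairpins and 13 of the 16 others hold the hexamer, so most genes of either kind have it. Called higher without the hexamer were Birc5, Pttg1 and Ncaph, which hold no CCAAT box either, and Ccnb1, which holds CCAAT boxes.

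**Figure D2:**
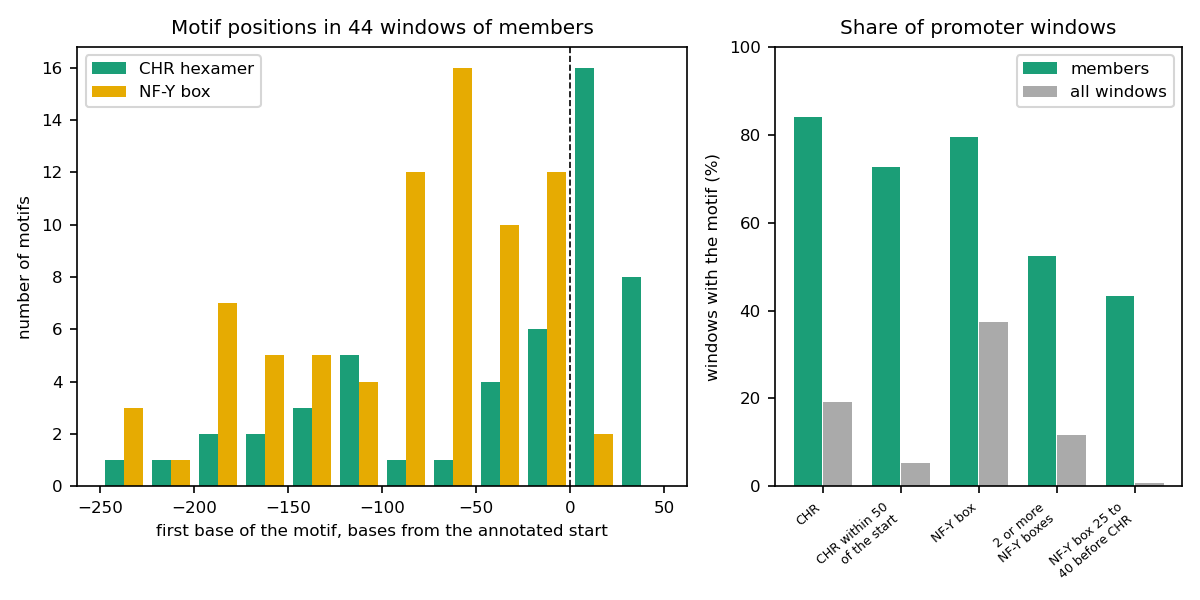
Left, the number of CHR hexamers and of CCAAT boxes (drawn as NF-Y box) by the distance of their first base from the annotated start, in bases, over the 44 windows. Right, the percentage of windows that hold each motif or arrangement, for the 44 windows and for all 32851 windows. The boxes lie mostly within 100 bases upstream the hexamers are most frequent just after the start, and every share is higher in the 44 windows.

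Of the 7 genes that drive entry into mitosis, 6 were called higher over both hairpins and none lower, with a median log2 change of 0.17. For each role group here and below, the background was 24.1% called higher and 25.9% lower, the shares over all genes tested. With shRNA1 alone 1 of the 7, Cdc25b, was called lower. Cdk1, the kinase itself, had 92.8 and 96.8 FPKM with shRNA1 and 96.1 and 88.3 FPKM with shRNA3, against 73.2 and 74.2 FPKM in WT. The 4 knockdown libraries lay above both WT libraries and the hairpins overlapped each other (log2 change 0.34, SE 0.04, limma adjusted p = 0.000562). Ccna2, which encodes cyclin A2, had 75.9 and 79.4 FPKM with shRNA1 and 85.6 and 83.6 FPKM with shRNA3, against 67.1 and 63.7 FPKM in WT. Again no knockdown library overlapped WT (log2 change 0.31, SE 0.04, limma adjusted p = 0.000574). The B-type cyclins rose by less, with log2 changes of 0.25 for Ccnb2 and 0.14 for Ccnb1, and the Ccnb1 call (limma adjusted p = 0.0125) was lost without WT replicate 1 (0.0757). The phosphatase genes Cdc25b and Cdc25c were called higher over both hairpins with a called rise in shRNA3 alone, and their values stand with the differences between hairpins below. The averaged call of Cdc25b was lost without WT replicate 2 (limma adjusted p = 0.0569). That of Cdc25c was lost without shRNA1 replicate 2, shRNA3 replicate 1 or WT replicate 1 (limma adjusted p between 0.0751 and 0.207). Foxm1, a transcription factor of late cell cycle genes, did not pass (log2 change 0.03, SE 0.04), with 43.5 to 52.0 FPKM in the knockdown libraries and 45.7 and 46.9 FPKM in WT.

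The kinases and partners of the Aurora and Polo group were called higher in 5 of 7 cases, with a median log2 change of 0.19. Aurkb, the kinase of the chromosomal passenger complex, had 83.1 and 77.6 FPKM with shRNA1 and 106.1 and 103.1 FPKM with shRNA3, against 65.3 and 69.3 FPKM in WT. The 3 groups did not overlap, with shRNA3 highest (log2 change over both hairpins 0.44, SE 0.04, limma adjusted p = 0.000156). With shRNA3 its mean FPKM was 1.55 times that of WT, and it was the 1 gene of the 50 to reach 1.5 times with either hairpin. Incenp, the scaffold that binds and activates Aurora B, had 58.2 and 56.5 FPKM with shRNA1 and 55.9 and 57.2 FPKM with shRNA3, against 47.4 and 47.9 FPKM in WT, a log2 change of 0.25 (SE 0.04, limma adjusted p = 0.000998). Birc5, which encodes survivin of the same complex, rose by 0.24, and the borealin gene Cdca8 did not pass over both hairpins (0.10, SE 0.04). Aurka, the spindle pole kinase, and Tpx2, its activator on microtubules, rose by 0.19 and 0.18. Plk1 did not pass over both hairpins (0.08, SE 0.05).

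In the spindle checkpoint and anaphase group 5 of 8 genes were called higher, and the same number with each hairpin singly. Shares called higher over all genes tested were 24.1% over both hairpins, 17.6% with shRNA1 and 27.4% with shRNA3. Pttg1 encodes securin, the inhibitor of separase, and had 132 and 143 FPKM with shRNA1 and 172 and 165 FPKM with shRNA3, against 115.1 and 116.0 FPKM in WT. It was highest with shRNA3, and the 3 groups did not overlap (log2 change 0.40, SE 0.04, limma adjusted p = 0.000216). Bub1, a checkpoint kinase at the kinetochore, had 35.3 and 38.2 FPKM with shRNA1 and 36.8 and 36.9 FPKM with shRNA3, against 28.8 and 27.4 FPKM in WT. The hairpins overlapped each other and not WT, with log2 changes of 0.37 with shRNA1 and 0.38 with shRNA3, and 0.38 over both (SE 0.05, limma adjusted p = 0.000463). Its relative Bub1b rose by 0.32, Ube2c by 0.28 and the checkpoint protein gene Bub3 by 0.18, a call that was lost without WT replicate 1 (limma adjusted p = 0.101). The checkpoint genes Mad2l1 and Ttk and the anaphase activator Cdc20 did not pass with either hairpin, with log2 changes over both of 0.02, 0.08 and 0.05.

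The kinetochore and centromere genes had the lowest median log2 change of the role groups, 0.00. Of the 7, 2 were called higher and 1 lower, against 24.1% and 25.9% of all genes tested. The share called higher was thus near the background. Cenpa, the histone variant that marks the centromere, had 116.6 and 109.6 FPKM with shRNA1 and 133.2 and 121.0 FPKM with shRNA3, against 97.6 and 100.6 FPKM in WT. All knockdown libraries lay above WT (log2 change 0.27, SE 0.05, limma adjusted p = 0.00265). Cenpf, a large protein of the outer kinetochore, had 24.2 and 25.5 FPKM with shRNA1 and 22.7 and 25.2 FPKM with shRNA3, against 21.9 and 20.5 FPKM in WT. The hairpins overlapped each other and not WT, but the margin to WT was narrow (log2 change 0.19, SE 0.06, limma adjusted p = 0.0229). The Cenpf call was lost without shRNA1 replicate 2, shRNA3 replicate 2 or WT replicate 2, where the log2 change was 0.175, 0.156 and 0.147. None of the 4 subunits of the Ndc80 complex, which binds microtubules, was called higher. Spc24 was the 1 gene of the 50 called lower over both hairpins, with 32.1 and 31.9 FPKM with shRNA1 and 35.7 and 35.6 FPKM with shRNA3, against 36.6 and 36.4 FPKM in WT. It was below WT in every knockdown library, by more with shRNA1 (log2 change -0.18) than with shRNA3 (-0.03), and the averaged call (-0.11, SE 0.04, limma adjusted p = 0.0437) was lost when any 1 of the 6 libraries was left out, at adjusted p between 0.0796 and 0.161. Ndc80 itself was also below WT in all 4 knockdown libraries without passing (-0.05, SE 0.04). Spc25 and Nuf2 varied widely between libraries of 1 group, and Nuf2 had 34.1 and 40.1 FPKM with shRNA1 and 33.1 and 30.6 FPKM with shRNA3, against 33.6 and 30.2 FPKM in WT. Cenpe, the kinesin of the kinetochore, had a log2 change of 0.00 (SE 0.05).

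Among 9 spindle kinesins and Hmmr, 4 of 10 genes were called higher and none lower over both hairpins, with a median log2 change of 0.10. Hmmr, a microtubule-binding protein of the spindle that is also known as a hyaluronan receptor, had 48.7 and 51.7 FPKM with shRNA1 and 61.0 and 60.5 FPKM with shRNA3, against 42.8 and 39.6 FPKM in WT. The 3 groups stood apart, shRNA3 highest (log2 change 0.42, SE 0.05, limma adjusted p = 0.000249). Kif22, a kinesin on chromosome arms, had 67.8 and 72.5 FPKM with shRNA1 and 70.2 and 73.8 FPKM with shRNA3, against 60.0 and 61.4 FPKM in WT, so the hairpins overlapped each other and not WT (0.22, SE 0.04, limma adjusted p = 0.00375). Kif4, another chromosome kinesin, and Kif14 rose by 0.19 and 0.22, though the Kif4 call was lost without either WT library (limma adjusted p = 0.0525 and 0.0582) and that of Kif14 without WT replicate 2 (0.0809). The other 6 kinesins did not pass over both hairpins. These were Kif11, which slides microtubules apart, at 0.05, the microtubule depolymerase Kif2c at 0.05, Kif18b at 0.12 and the central spindle motors Kif20a, Kif20b and Kif23 at 0.03, 0.07 and 0.08.

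All 4 genes of the central spindle and cytokinesis group were called higher, with a median log2 change of 0.34. Anln encodes anillin, a scaffold of the contractile ring, and had 133.9 and 139.0 FPKM with shRNA1 and 137.1 and 139.1 FPKM with shRNA3, against 103.4 and 101.9 FPKM in WT. The hairpins overlapped each other and stood clear of WT (0.42, SE 0.04, limma adjusted p = 6.40e-05). Prc1, which bundles the central spindle, had 121.2 and 122.0 FPKM with shRNA1 and 143.5 and 142.4 FPKM with shRNA3, against 100 and 97.7 FPKM in WT. Its 3 groups were separated by far more than their replicates differed (0.41, SE 0.03, limma adjusted p = 5.32e-05). Ect2, the exchange factor that switches on RhoA at the division plane, rose by 0.27, and Racgap1, its partner at the central spindle, by 0.22, where shRNA1 alone did not pass (0.11, SE 0.05).

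Of the 7 genes of condensin and the mitotic chromosome 5 were called higher, with a median log2 change of 0.22. Top2a had 318 and 325 FPKM with shRNA1 and 362 and 373 FPKM with shRNA3, against 267 and 259 FPKM in WT, again without overlap between the 3 groups (0.39, SE 0.03, limma adjusted p = 8.32e-05). Mki67, whose protein Ki-67 coats mitotic chromosomes and is a common marker of proliferation, had 72.6 and 74.6 FPKM with shRNA1 and 76.8 and 83.3 FPKM with shRNA3, against 61.0 and 59.0 FPKM in WT. All knockdown libraries were above WT (0.35, SE 0.04, limma adjusted p = 0.000463). The condensin subunit genes Ncapd2, Ncaph and Smc4 rose by 0.32, 0.19 and 0.22, though Smc4 overlapped WT in 1 library and its call was lost without WT replicate 2 (limma adjusted p = 0.112). Ncapg and Smc2 were above WT in all 4 knockdown libraries but did not pass (0.13, SE 0.05, and 0.14, SE 0.05).

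**Figure D3:**
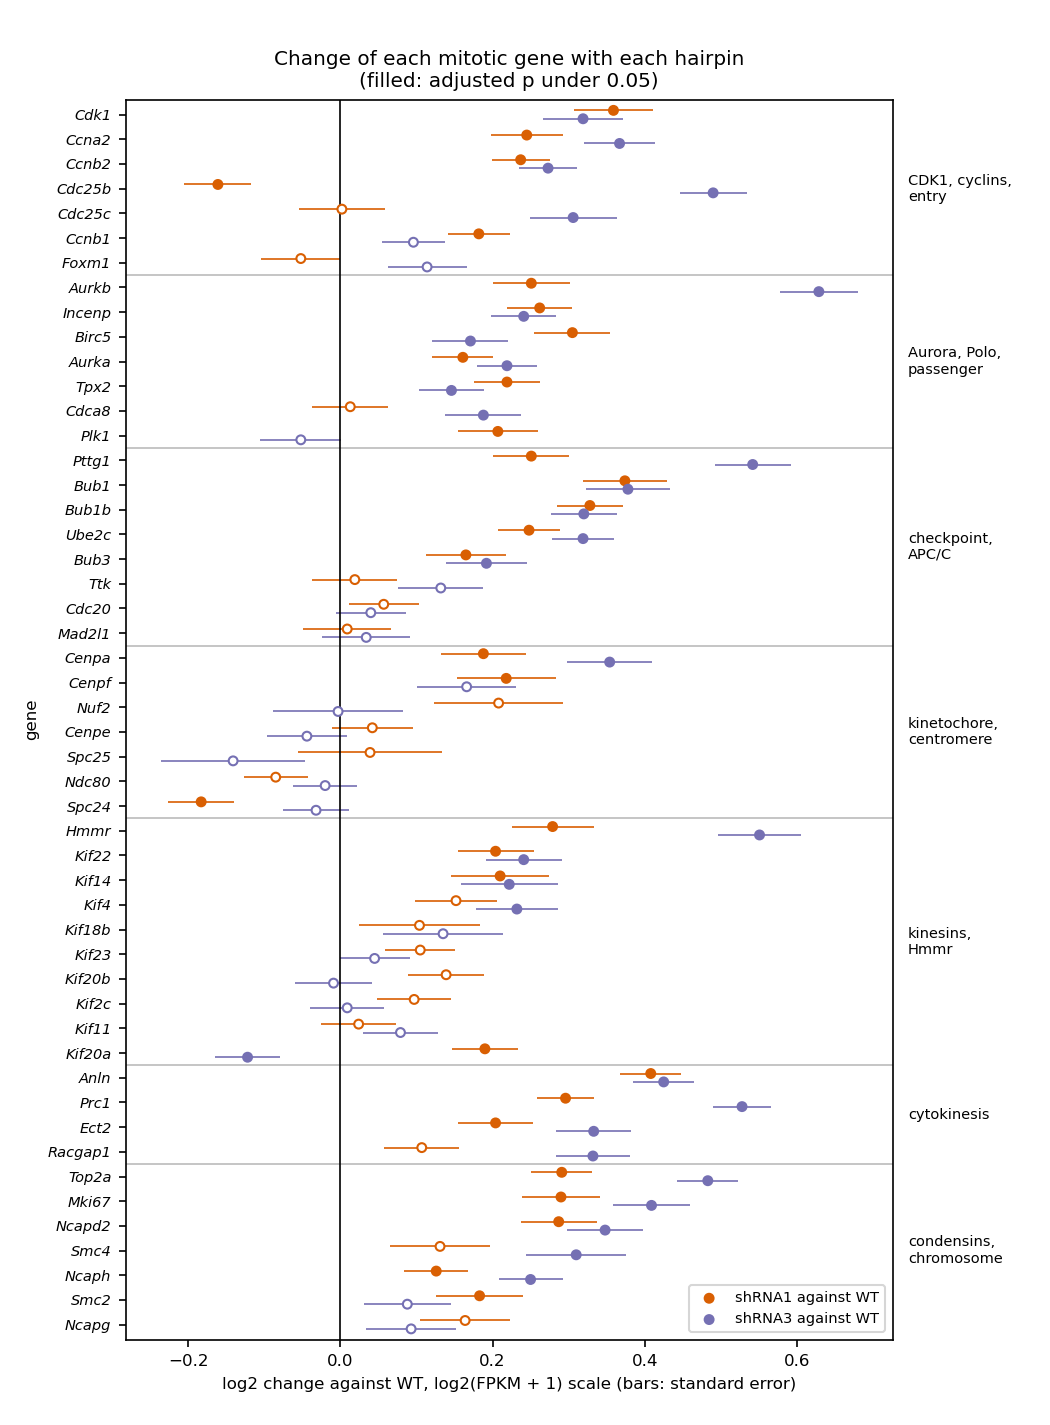
Log2 change against WT on the log2(FPKM + 1) scale (horizontal axis, bars are standard errors) of each of the 50 genes with shRNA1 and with shRNA3, by role. Filled points passed an adjusted p of 0.05. Most points lie right of 0, the largest being Aurkb with shRNA3 at 0.63, and Cdc25b and Kif20a have filled points on opposite sides of 0.

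Grouped by kind of protein, kinases were called higher in 5 of 7 cases over both hairpins (median log2 change 0.32), cytokinesis genes, with Kif20a and Kif23 counted here, in 4 of 6 (0.24), kinesins, with Cenpe, in 3 of 10 (0.07) and kinetochore genes in 2 of 7 (0.00). With shRNA1 the counts called higher were 6 kinases, 4 cytokinesis genes, 3 kinesins and 2 kinetochore genes, and with shRNA3 they were 5, 4, 3 and 1. Over all genes tested the shares called higher were 24.1% over both hairpins, 17.6% with shRNA1 and 27.4% with shRNA3. The kinesin and kinetochore shares over both hairpins were near that background. Kinases and cytokinesis genes thus had the higher shares with each hairpin. The differences between these groups of few genes were not tested.

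The direct comparison of shRNA3 with shRNA1 called 13 of the 50 genes higher with shRNA3 (26%) and 3 lower. WT does not enter the difference itself, but the WT libraries share in the estimate of its spread. Among all genes tested 22.0% were called higher and 20.5% lower, so the share called higher was near the background and the share called lower under it. In either direction 16 genes (32%) were called, against 42.5% of all genes tested. With no filter on low values 6 were called higher with shRNA3 than with shRNA1, against 4.88% of all genes then tested. Fewer were also called higher without shRNA3 replicate 2, where the share of all genes was not counted. The largest difference was in Cdc25b, which had 65.2 and 62.9 FPKM with shRNA3 and 40.3 and 40.5 FPKM with shRNA1, next to 45.7 and 44.8 FPKM in WT. It was above WT with shRNA3 (log2 change 0.49) and below WT with shRNA1 (-0.16), and the difference between the hairpins was 0.65 (SE 0.04, limma adjusted p = 4.24e-05). The fall with shRNA1 was lost when either shRNA1 library or either WT library was left out (limma adjusted p between 0.0595 and 0.103). Aurkb came next, with a difference of 0.38 (SE 0.05, limma adjusted p = 0.000961) on values given above. Cdc25c, whose protein like CDC25B activates CDK1, had 29.1 and 27.2 FPKM with shRNA3 and 22.2 and 23.0 FPKM with shRNA1, next to 21.9 and 23.3 FPKM in WT. It stood apart with shRNA3, while shRNA1 and WT overlapped (difference 0.30, SE 0.06, limma adjusted p = 0.0042). Pttg1, Hmmr, Prc1, Racgap1 and Top2a were also higher with shRNA3, by 0.29, 0.27, 0.23, 0.23 and 0.19. Racgap1 lost that call without shRNA3 replicate 2, where the difference was 0.187. With no filter on low values, Cdc25c, Pttg1, Hmmr and Racgap1 did not pass (limma adjusted p between 0.053 and 0.0799).

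In the other direction, Kif20a, a motor of the central spindle, had 51.0 and 50.1 FPKM with shRNA3 and 63.2 and 62.8 FPKM with shRNA1, next to 56.1 and 54.1 FPKM in WT. WT lay between the hairpins (difference -0.31, SE 0.04, limma adjusted p = 0.000974), with a rise of 0.19 against WT with shRNA1 and a change of -0.12 with shRNA3. That fall was lost when any 1 of the 6 libraries was left out (limma adjusted p between 0.0589 and 0.179), and the rise without shRNA1 replicate 1 (0.0522) or WT replicate 2 (0.0618). Plk1, the Polo kinase of spindle assembly and mitotic exit, had 65.4 and 71.3 FPKM with shRNA3 and 84.0 and 79.9 FPKM with shRNA1, next to 70.8 and 70.9 FPKM in WT. The shRNA1 libraries were the high ones, and shRNA3 overlapped WT (difference -0.26, SE 0.05, limma adjusted p = 0.0059, and 0.0762 with no filter on low values). Its rise with shRNA1 (0.21) was lost without shRNA1 replicate 1 or either WT library (limma adjusted p between 0.0617 and 0.0983). Kif20b, a kinesin of late mitosis, had 19.5 and 18.8 FPKM with shRNA3 and 21.3 and 21.4 FPKM with shRNA1, next to 19.4 and 19.2 FPKM in WT (difference -0.15, SE 0.05, limma adjusted p = 0.0446). The hairpins did not overlap, but this call was lost when any 1 library was left out, at adjusted p between 0.063 and 0.188.

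**Figure D4:**
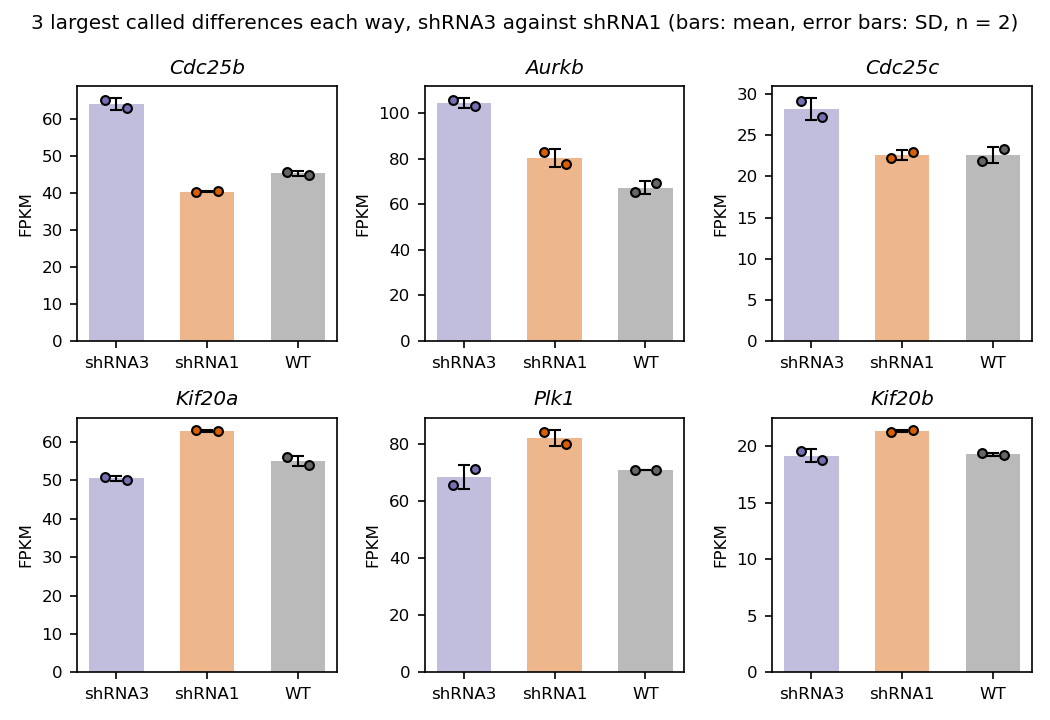
FPKM (vertical axis from 0) of the 3 genes with the largest called differences in each direction between shRNA3 and shRNA1, as 2 libraries per group (points), their mean (bars) and SD (error bars). Cdc25b, Aurkb and Cdc25c in the upper row are highest with shRNA3, and Kif20a, Plk1 and Kif20b in the lower row are highest with shRNA1.

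Other genes of the same processes were counted from lists chosen by function. Among 112 further mitotic genes, 35 were called higher and 20 lower over both hairpins, with a median log2 change of 0.06, so the share called higher was less above the background than among the 50. Over all genes tested 24.1% were called higher and 25.9% lower, the background for each list here. Of 27 other spindle and cytokinesis genes 14 were called higher and 3 lower. Cep55, which recruits the abscission machinery, rose by 0.42 (limma adjusted p = 0.000396), and Stmn1, which sequesters tubulin, fell by 0.45 on the log2 scale (limma adjusted p = 6.94e-05). Of 34 other kinetochore and centromere genes 6 were called higher, led by Cenpw of the inner kinetochore with 0.57, and 8 lower, led by Cenpt with -0.37, which changed by -0.70 with shRNA3 and -0.04 with shRNA1 (difference -0.66, limma adjusted p = 0.000932). Of 31 other checkpoint, anaphase and condensin genes 7 were called higher and 4 lower, with Ncaph2 of condensin II at 0.49 and the checkpoint gene Mad1l1 at -0.38. Of 20 other mitotic kinases and regulators of CDK1, 8 were called higher and 5 lower, with the kinase Nek6 at 0.30 and Bora, an activator of Aurora A, at -0.25.

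Of 20 genes for subunits of DREAM, MuvB and NF-Y and for E2F and DP factors, 3 were called higher and 6 lower over both hairpins. The shares over all genes tested were 24.1% and 25.9%. Nfyc, a subunit of NF-Y, which binds the CCAAT box, had 19.9 and 18.9 FPKM with shRNA1 and 14.0 and 14.1 FPKM with shRNA3, against 27.1 and 25.6 FPKM in WT, the largest fall of that list (-0.64, SE 0.05, limma adjusted p = 3.77e-05), and E2f3, an E2F transcription factor, fell by 0.45. DNA replication genes, which act earlier in the cycle, were called higher in 3 and lower in 11 of 36 cases over both hairpins. With shRNA1 11 were called higher and 2 lower, against 17.6% and 18.4% of all genes tested. With shRNA3 2 were called higher and 18 lower, against 27.4% and 27.8%. Compared directly, 22 of the 36 were lower with shRNA3 than with shRNA1 and 1 was higher, against 20.5% and 22.0% of all genes tested. Tyms, which makes thymidylate, and Fen1, a flap nuclease, had differences of -0.43 and -0.48.

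Of 14 CDK inhibitors and genes of the first gap phase 10 passed the filter. Over both hairpins 4 of these were called higher and 2 lower, against 24.1% and 25.9% of all genes tested. Cdkn1a, which encodes the CDK inhibitor p21, had 33.2 and 32.0 FPKM with shRNA1 and 20.1 and 18.7 FPKM with shRNA3, against 14.5 and 16.0 FPKM in WT (log2 change over both hairpins 0.69, SE 0.06, limma adjusted p = 5.78e-05). It was highest with shRNA1, in contrast to Cdc25b and Aurkb. Cdkn2d, which encodes the inhibitor p19 of CDK4 and CDK6, had 61.1 and 59.9 FPKM with shRNA1 and 84.3 and 74.7 FPKM with shRNA3, against 44.8 and 43.9 FPKM in WT (0.63, SE 0.05, limma adjusted p = 5.63e-05).

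**Figure D5:**
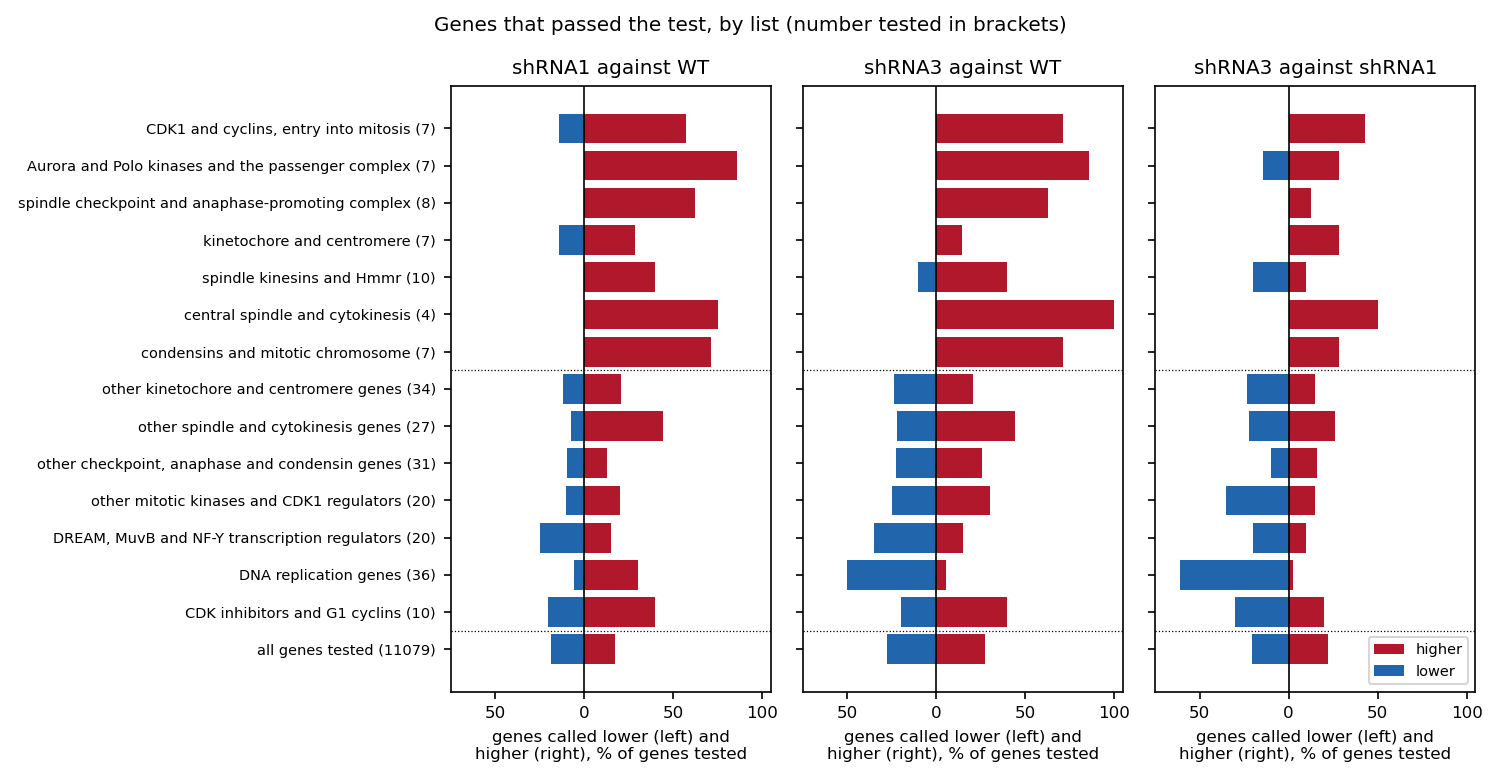
Share of the genes tested that were called higher (red, right) and lower (blue, left), in percent, for each role group of the 50 genes, for the other lists and for all 11079 genes tested, in 3 comparisons. Red exceeds blue in each role group against WT with either hairpin, and DNA replication genes are mostly blue with shRNA3 against WT and against shRNA1.

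The 50 genes lie on 16 chromosomes, so they do not form a cluster in the genome. On mm10 with GENCODE release M21, Aurkb spans chromosome 11 from 69045647 to 69051664 on the plus strand, Prc1 chromosome 7 from 80294450 to 80316259 on the plus strand, and Cdc25b chromosome 2 from 131186949 to 131198497 on the plus strand. Exons of 12 of the genes overlap exons on the other strand, and the sources used here do not state whether the authors counted by strand. Of the partners measured here, Pdzd11 for Kif4 had 23.9 to 32.6 FPKM, above the level of Kif4 itself. Elovl1 for Cdc20 had 18.6 to 21.8 FPKM, Cdc23 for Kif20a 18.6 to 20.6 FPKM and Exosc9 for Ccna2 10.1 to 15.6 FPKM. Lower levels were found for Lcorl beside Ncapg, at 5.09 to 11.02 FPKM, 9930104L06Rik beside Cdca8, at 4.13 to 5.46 FPKM, Rccd1 beside Prc1, at 2.18 to 3.57 FPKM, Spef1 beside Cdc25b, at 1.37 to 2.96 FPKM, and Tnnc2 beside Ube2c, at 0.128 to 2.06 FPKM. Named pseudogene copies exist in the annotation for Ccnb1, Ccnb2, Kif4 and Kif22, whose values are therefore less certain.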

How the data were processed

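RNA of 6 libraries of 4T1 cells was made into libraries with a stranded mRNA kit, per the labels' protocols, and grouped by title as shRNA1, shRNA3 and WT, 2 each. Per library, the authors deposited gene symbols with 1 value each and no stated unit. These were read as FPKM, because Cufflinks 2.2.1 appears in the submitters' processing notes (with TopHat2 2.0.13, Bowtie2 2.2.3, SAMtools 0.1.19 and mm10) and the deposited values have decimals and unequal totals. FPKM are relative to a library's mapped total, so abundant genes that rise lower all others. Annotation and strand setting: not given in the sources used here.

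From log2(FPKM + 1), the 11079 genes whose mean reached 1 FPKM were fitted with limma 3.58.1 (R 4.3.3) as 3 group means with a variance trend (3 residual, 4.96 prior degrees of freedom). Tests were two-sided and Benjamini-Hochberg adjusted over all genes. Only the test over both hairpins was tried on simulated data, with equal changes for both hairpins in far fewer genes than were called here. That trial does not cover the other tests. Ratios are of mean FPKM. Values per library are given for the 2 called genes with the largest change in each role group, the 3 largest differences between hairpins each way, genes against the majority and some others picked after their values were seen. Up to 2 genes per further list are named. The genes and lists were chosen with earlier results of these data known. Coordinates come from GENCODE M21 (GRCm38). Python 3.11.15, pandas 2.3.3 and matplotlib 3.10.9 were used. Alternatives were pseudocounts, filters, 3 scalings, a replicate block, no variance trend, other sample sets and leaving out each library.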

Additional observations from a re-analysis of the deposited data

Results flagged for a closer look

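The test of shRNA3 against shRNA1 asks whether the hairpins changed a gene unequally, and 16 of the 50 genes (32%) passed it, against 42.5% of all genes tested, a share below that background. On the log2 scale the differences, shRNA3 minus shRNA1, were 0.65 for Cdc25b, 0.38 for Aurkb, 0.30 for Cdc25c, 0.29 for Pttg1, 0.27 for Hmmr, 0.23 for Prc1, 0.23 for Racgap1, 0.19 for Top2a, 0.18 for Cdca8, 0.17 for Foxm1, 0.17 for Cenpa, 0.15 for Spc24, 0.12 for Ncaph, -0.15 for Kif20b, -0.26 for Plk1 and -0.31 for Kif20a. In Cdc25b and Kif20a the change against WT was called in opposite directions. Under every alternative tried, Cdc25b, Aurkb, Top2a, Prc1 and Kif20a passed, and 9 of the 16 passed whichever library was left out.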

How the results depend on the processing

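Groups of 2 libraries limit these results: of the calls over both hairpins 23 of 32 passed whichever library was left out, and 12 passed under every alternative, against 17 and 10 of 31 with shRNA1, 24 and 22 of 31 with shRNA3, and 9 and 5 of 16 between the hairpins. Genes called higher over both hairpins numbered 12 with the knockdown libraries as 1 group and 26 to 33 with 1 library left out. The genes called lower over both hairpins numbered 2 with no filter and with the same total, 0 with median-of-ratios scaling, the replicate block, no variance trend or the knockdown libraries as 1 group, and 0 whichever library was left out. The median change over both was 0.124 with the same total, 0.157 with quantile normalization and 0.169 to 0.201 with 1 library left out.

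With shRNA1, 13 genes were called higher with no filter, 17 with the same total and 19 to 27 with 1 library left out, 1 was called lower with no variance trend and 0 to 2 with 1 library left out, and the median was 0.129 with the same total and 0.17 to 0.199 with 1 library left out. With shRNA3, 26 to 30 were called higher with 1 library left out, 0 were called lower with median-of-ratios scaling, the replicate block, no variance trend or the 2 groups alone, and 0 to 1 with 1 library left out. The median with shRNA3 was 0.151 with the same total, 0.196 with quantile normalization and 0.202 to 0.245 with 1 library left out. Between the hairpins 6 were called higher with no filter and 8 to 12 with 1 library left out, 2 to 4 were called lower, and the median was 0.031 to 0.063. AU021063 was at 25.9% to 45.8% of WT with 1 library left out. The cause of these shifts was not tested. Counts with 1 library left out have no share of all genes beside them, so they cannot be set against a background.

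Sign changes larger than the replicate SD were in values called in neither fit. With the same total the log2 change over both hairpins was -0.017 for Cdc20, -0.011 for Kif2c, -0.013 for Kif11, -0.031 for Kif20a and -0.033 for Foxm1, with shRNA1 -0.037 for Ttk, -0.000 for Cdc20, -0.053 for Cdc25c, -0.044 for Cdca8, -0.032 for Kif11 and -0.013 for Cenpe, and with shRNA3 -0.039 for Mad2l1, -0.033 for Cdc20, -0.063 for Kif2c and -0.028 for Kif23, which was at -0.001 with quantile normalization. With 1 library left out the change over both ran from -0.047 to 0.045 for Cenpe, and with shRNA1 from -0.039 to 0.077 for Ttk, -0.047 to 0.073 for Cdca8, -0.026 to 0.074 for Kif11, -0.010 to 0.218 for Kif18b and -0.003 to 0.088 for Cenpe. With shRNA3 it ran from -0.114 to 0.009 for Plk1, -0.037 to 0.019 for Kif20b and -0.090 to 0.002 for Cenpe, and between the hairpins from -0.101 to 0.020 for Cdk1, -0.052 to 0.060 for Bub1, -0.083 to 0.145 for Kif18b and -0.009 to 0.044 for Anln.

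Same-numbered libraries share a number in their titles, and no other pairing is stated. Over genes, replicate 1 minus replicate 2 correlated at 0.010 for shRNA1 and WT, -0.072 for shRNA3 and WT and 0.199 for shRNA3 and shRNA1. These values cannot show whether same-numbered libraries were handled together. With the replicate number as a block, 30 genes were called higher and 0 lower over both hairpins, 25 and 2 with shRNA1, 30 and 0 with shRNA3, and 9 and 2 between the hairpins.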
